A study of Mus musculus with 8 samples.

Results

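The 10 genes described here belong to cell adhesion and homing, and they were followed in mouse leukaemia cells: Fn1, Itga4, Itgb1, Itgam, Itgb2, Itga2b, Cd44, Selplg, Cxcr4 and Cd34. They were chosen by symbol, and 10 of 10 were found among the 52459 gene rows of the deposited table. The cells carried AE9a, a shortened RUNX1-RUNX1T1 fusion protein that drives acute myeloid leukaemia in mice. C57BL/6J marrow selected for cKit was transduced with a retrovirus that encodes AE9a and a doxycycline-inducible hairpin against Tet2, and every library has the genotype label RTA shTet2. AE9a-positive cells were harvested from spleens of moribund recipients. These were lethally irradiated C57BL/6J mice, 6 to 8 weeks old at transplant per the labels for the primary recipients. They had received 50000 leukaemia cells and 500000 support marrow cells, so normal blood cells of the host and the support graft could remain in these animals. In the secondary recipients, 2 mice were off doxycycline and given PBS (labelled Tet2 restored, mice 21 and 23), 2 mice stayed on doxycycline and were given ascorbate (mice 28 and 30), and 3 mice stayed on doxycycline and were given PBS (mice 16, 17 and 19). The eighth library is that of mouse 12, a primary recipient given doxycycline. Whether a difference off doxycycline belongs to the drug's absence or to Tet2 itself cannot be told apart, since both go together. The labels number the mice separately and do not say whether the secondary recipients shared 1 donor leukaemia.

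Integrins are pairs of an alpha and a beta chain that bind matrix or a counter-receptor on another cell, and talin and kindlin bind the beta tail to switch them on. In blood cells alpha4 beta1 (VLA-4) binds VCAM-1 and fibronectin, alpha4 beta7 binds MAdCAM-1, the beta2 integrins LFA-1 and Mac-1 bind ICAM-1, and alphaIIb beta3 is the fibrinogen receptor of platelets. Leukaemic and normal progenitors use these receptors, together with CD44 for hyaluronan, PSGL-1 (the product of Selplg) for selectins and CXCR4 for CXCL12, to reach and hold their place in marrow and spleen.

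The coding sequences of known contact sites are printed for the ligand Fn1 and for the beta chains whose levels the results turn on. They were read from GENCODE vM21 transcripts on GRCm38, in coding orientation, and capitals mark the codons of the named motif. In Fn1 the codons of RGDS, the site bound by alpha5 beta1 and alphav integrins, lie in exon 30 (chr1:71606725-71606772, minus strand), and those of EILDV, the site in the alternatively spliced connecting segment bound by alpha4 beta1, lie in exon 40 (chr1:71597665-71597715). For the beta chains the last match to the searched letters is printed, NPxY for Itgb1 and Itgb7 and NPxF or NPxY for Itgb2. In Itgb1 it is the last of 2 NPxY matches in the protein, in exon 16 (chr8:128732047-128732085, plus strand). In Itgb7 the single NPxY match spans exons 14 and 15 on chromosome 15 (minus strand). In Itgb2 it is the last of 3 NPxF or NPxY matches, an NPxF in exon 16 (chr10:77565199-77565237, plus strand). The Itgb7 match begins at residue 774 of 806, that of Itgb1 at 792 of 798 and that of Itgb2 at 764 of 770. The Itgb1 and Itgb2 matches thus lie equally far from the end of the tail, and the Itgb7 match lies farther from it. NPxF was not searched in Itgb7.
Fn1 RGDS: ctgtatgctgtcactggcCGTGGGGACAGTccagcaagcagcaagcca
Fn1 EILDV: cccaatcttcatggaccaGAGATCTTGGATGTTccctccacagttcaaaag
Itgb1 NPxY: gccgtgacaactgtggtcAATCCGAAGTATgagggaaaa
Itgb7 NPxY: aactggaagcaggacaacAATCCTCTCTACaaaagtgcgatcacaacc
Itgb2 NPxF: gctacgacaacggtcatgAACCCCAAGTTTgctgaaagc

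AE9a keeps the DNA-binding domain of RUNX1, so the promoters were searched for the RUNX letters TGTGGT on both strands, from 250 bases before the start to 50 bases after it. RefSeq promoters (GRCm38.p6) were matched for 7 of the 10 genes: Itga4, Itgb1, Itgam, Itga2b, Cd44, Cxcr4 and Cd34. The letters were found in 1 of the 7, that of Itga4, beginning 60 bases before the start on the opposite strand, and 16.8% of 32851 promoters hold them. Of the other motifs, the GATA letters AGATAA stood in the Cd44 promoter and in 11.2% of all promoters, and the ETS letters GGAAGT stood in the Itga2b promoter and in 23.8% of all promoters. These matches are a description of the letters and say nothing of binding. The Itga4 promoter (chr2:79255176-79255475, plus strand) is printed because it holds the match, which is in capitals.
Itga4 promoter: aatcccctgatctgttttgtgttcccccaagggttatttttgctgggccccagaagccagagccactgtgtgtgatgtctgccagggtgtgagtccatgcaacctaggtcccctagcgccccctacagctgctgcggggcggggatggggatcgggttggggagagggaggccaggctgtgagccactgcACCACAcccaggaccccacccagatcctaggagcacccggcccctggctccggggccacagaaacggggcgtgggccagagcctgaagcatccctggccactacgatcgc

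Library totals were 18.1 M to 34.2 M reads counted on genes, and mitochondrial reads were 5.16% to 17.1% of them. Tet2, the targeted gene, stood at 14.1 and 23.1 CPM (counts scaled to a common library total) off doxycycline, at 13.7 and 11.7 CPM under ascorbate, at 9.26 CPM in the primary library and, in the PBS knockdown mice, at 12.6, 12.8 and 13.4 CPM. Mouse 21, labelled Tet2 restored, thus lay barely above the PBS knockdown mice in Tet2, while mouse 23 was well above them. Levels of a gene across libraries are given in CPM, and levels of different genes are compared in the deposited FPKM, which divides by gene length. Differences are log2 fold changes from edgeR's quasi-likelihood test, and a gene passed where its Benjamini-Hochberg adjusted p over all genes tested was under 0.05. The standard error (SE) was derived from that test, as the absolute log2 fold change over the square root of the F statistic. The number of mice limits every p-value.

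The 10 genes fell into an abundant and a scarce set on the FPKM scale. Over the 8 libraries, Itgb1, the beta chain shared by most matrix-binding integrins, ranged from 180 to 329 FPKM with a median of 266, above every other member in every library. Itga4, its alpha4 partner, had a median of 26.1 FPKM (21.1 to 43.1), the hyaluronan receptor Cd44 19.9 FPKM (11.7 to 24.8), the beta2 chain Itgb2 16.3 FPKM (10.4 to 21.1) and Selplg 13.7 FPKM (7.11 to 20.4). In this order each of these 4 genes overlapped the next in range, but Itga4 lay wholly above Itgb2 and Selplg. The scarce genes were the CXCL12 receptor Cxcr4 with a median of 0.76 FPKM (0.19 to 1.28), Fn1 with 0.305 FPKM (0.12 to 0.84), Itgam, the alphaM chain of Mac-1, with 0.23 FPKM (0.14 to 0.54), Itga2b, the alphaIIb chain, with 0.205 FPKM (0.10 to 0.58), and Cd34, a sialomucin of progenitors and vessels, with 0.145 FPKM (0 to 2.72). The ranges of the scarce genes overlapped one another, and none reached the range of Selplg. Among 12137 genes ranked by mean FPKM in the PBS knockdown mice, Itgb1 ranked 86, Itga4 1755, Fn1 11491 and Itga2b 11542.

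**Figure D1:**
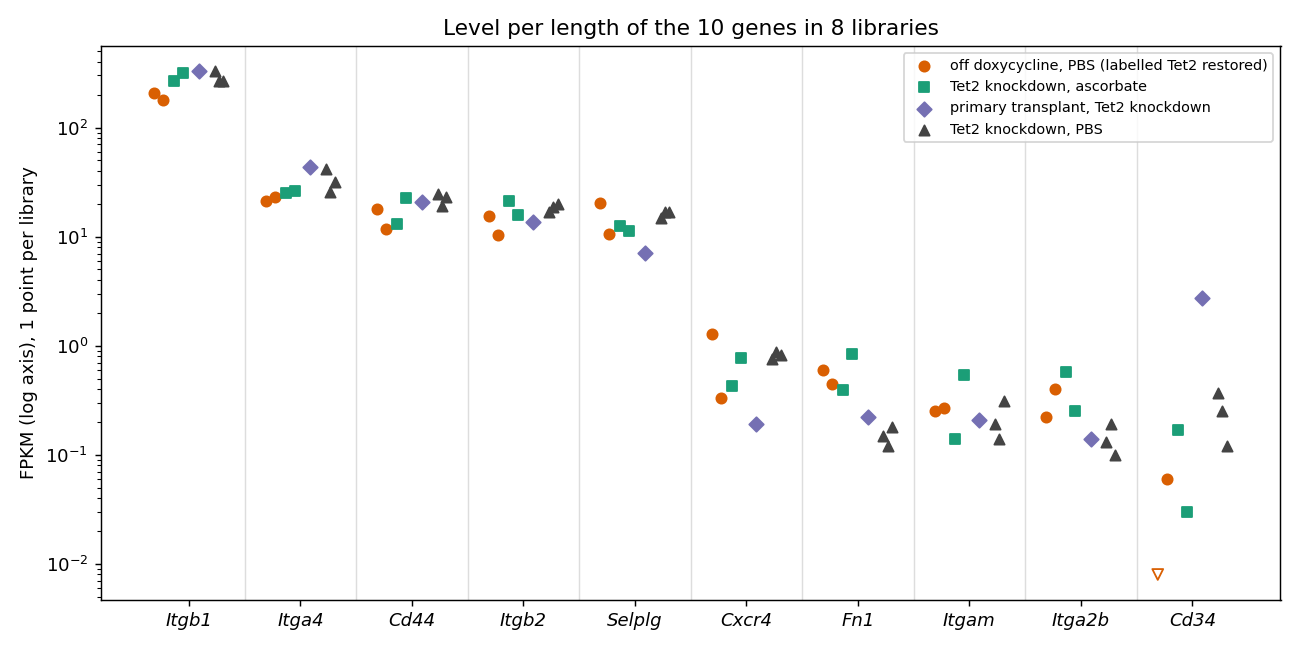
Deposited FPKM (log axis) of the 10 genes, 1 point per library, grouped by the 4 conditions; the open triangle is Cd34 in mouse 21, listed at 0. Itgb1 sits at 180 to 329 FPKM, 4 genes sit between 7.11 and 43.1 FPKM, and the scarce 5 stay under 3 FPKM, Cd34 in the primary library being their highest point at 2.72 FPKM.

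The chains that could pair with the members were unequal in the same way. For alpha4, Itgb1 was at 7.63 to 12.0 times the FPKM of Itga4 over the 8 libraries, while the other alpha4 partner, Itgb7, stood at 23.7 to 71.4 FPKM. The ratio of Itgb7 to Itga4 in FPKM was 2.64 and 3.11 off doxycycline, 1.28 and 0.900 under ascorbate, 1.01 in the primary library and 0.762, 1.23 and 1.06 in the PBS knockdown mice. Both mice off doxycycline lay above all the others. Other alpha partners of beta1 were also present, Itga5, the fibronectin receptor's alpha chain, at a median of 16.8 FPKM (11.6 to 27.6) and Itga6, a laminin receptor chain, at 15.3 FPKM (11.7 to 24.2). Itgav had a median of 1.23 FPKM. For beta2, Itgal, the alpha chain of LFA-1, made up 91.7% to 98.5% of the summed FPKM of Itgal, Itgam, Itgax and Itgad in the 8 libraries. The beta3 chain that completes the platelet receptor with alphaIIb, Itgb3, was at 0 to 0.04 FPKM.

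**Figure D2:**
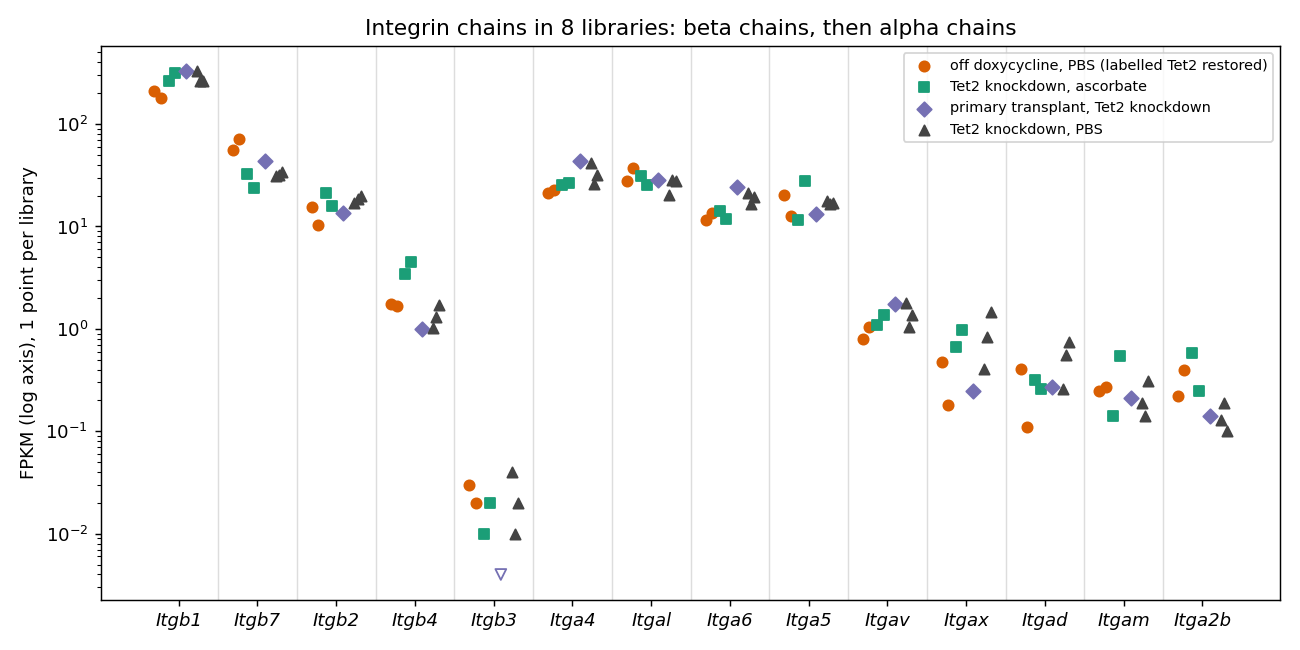
Deposited FPKM (log axis) of integrin beta chains, then alpha chains, 1 point per library; the open triangle is Itgb3 in the primary library, listed at 0. Itgb7 is at 55.8 and 71.4 FPKM off doxycycline, above the other 6 libraries, and Itgb3 stays at or under 0.04 FPKM.

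Off doxycycline against the PBS knockdown, the study asks what changes when the hairpin is switched off in established leukaemia. No member passed the adjusted test. Fn1, the matrix ligand of alpha4 beta1 and alpha5 beta1, had 7.21 and 5.25 CPM off doxycycline, against 1.81, 1.44 and 2.11 CPM in the PBS knockdown mice. Both mice off doxycycline were above all 3 PBS knockdown mice. The log2 difference of Fn1 was 1.79 (SE 0.38, edgeR quasi-likelihood Benjamini-Hochberg adjusted p = 0.0509), just short of the threshold, with 6.23 ± 1.39 CPM off doxycycline (SD, n = 2) and 1.79 ± 0.34 CPM in the PBS knockdown (SD, n = 3). In leukaemia cells measured in bulk, fewer cells of a type and less RNA per cell cannot be told apart.

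The VLA-4 chains stood lower off doxycycline, without passing. Itga4 had 304 and 324 CPM off doxycycline and 580, 366 and 448 CPM in the PBS knockdown mice, a log2 difference of -0.57 (SE 0.19, edgeR quasi-likelihood Benjamini-Hochberg adjusted p = 0.0973). Itgb1 had 876 and 739 CPM off doxycycline and 1346, 1097 and 1086 CPM in the PBS knockdown mice, with -0.54 (SE 0.17, adjusted p = 0.0779). The groups did not overlap for either chain. Itga4 is a long gene, in the 97.3 percentile of length among genes tested. Each library's deviation from the mean of the PBS knockdown mice was correlated by rank with gene length. This gave -0.46 and -0.28 in the mice off doxycycline and 0.37, -0.35 and -0.064 in the PBS knockdown mice, which make up that mean. With a length offset the Itga4 difference was -0.14 and that of Itgb1 -0.51.

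Itgb7 stood the other way, with 157 and 198 CPM off doxycycline, against 86.7, 88.6 and 93.3 CPM in the PBS knockdown mice. Every mouse off doxycycline was above every other library, including the primary one at 119 CPM. The log2 difference was 0.99 (SE 0.17, edgeR quasi-likelihood Benjamini-Hochberg adjusted p = 0.0502). This smallest adjusted p of the comparison was shared by many genes, among them Ccr9, Cd82 and Vcam1, and Itgb7 ranked 49 by unadjusted p. Itgb7 is also carried by mast cells, and the summed level of the 8 mast and basophil markers was 1161 and 1422 CPM off doxycycline and 589, 469 and 611 CPM in the PBS knockdown mice. Under ascorbate those markers were at 787 and 1100 CPM and Itgb7 at 89.4 and 66.1 CPM. In the primary library the markers were at 1422 CPM and Itgb7 at 119 CPM. The libraries are labelled as AE9a-positive, and the part of any mast cells in the Itgb7 difference was not tested.

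Of the beta2 pair, Itgb2 had 48.2 and 32.004 CPM off doxycycline and 51.7, 57.5 and 60.8 CPM in the PBS knockdown mice (log2 difference -0.50, SE 0.21), and the groups did not overlap. Itgam was at 1.65 and 1.77 CPM off doxycycline, against 1.21, 0.90 and 2.01 CPM in the PBS knockdown mice (0.31, SE 0.57), with overlap. Itga2b had 1.24 and 2.22 CPM off doxycycline and 0.726, 1.03 and 0.573 CPM in the PBS knockdown mice, a log2 difference of 1.15 (SE 0.51) on only 16 to 44 reads per library. The mice off doxycycline were both higher.

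Cd44 had 125 and 80.3 CPM off doxycycline and 169, 130 and 158 CPM in the PBS knockdown mice (-0.57, SE 0.27), without overlap. Selplg, at 89.6 and 45.9 CPM off doxycycline and 64.1, 72.2 and 71.9 CPM in the PBS knockdown mice, differed by -0.036 (SE 0.25). Cxcr4, at 2.39 and 0.61 CPM off doxycycline and 1.37, 1.60 and 1.51 CPM in the PBS knockdown mice, differed by 0.016 (SE 0.56). In both genes mouse 21 was the highest and mouse 23 the lowest of the 5 libraries, so the small difference averages unlike mice. Cd34 gave 0 and 9 reads off doxycycline (0 and 0.454 CPM), against 67, 45 and 24 reads in the PBS knockdown mice (2.70, 1.85 and 0.860 CPM). The zero in mouse 21 allows up to 0.124 CPM by a floor of 3 reads, which covers counting error only. The log2 difference of Cd34 was -3.04 (SE 1.11, edgeR quasi-likelihood Benjamini-Hochberg adjusted p = 0.115).

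Across the members, 0 of 10 passed in either direction with edgeR, as did 0% of the 12137 genes tested in either direction, where the smallest adjusted p was 0.0502. An unadjusted p under 0.05 was reached by 6 of 10 members, against 29.2% of all genes, and the groups did not overlap for 7 of 10, against 49.4% of all genes. The median log2 difference was -0.27 over the members and -0.0020 over all genes tested. DESeq2's Wald test called 4 members (Fn1 higher, and Itga4, Itgb1 and Cd34 lower), where it called 1951 of 12137 genes. With limma voom 0 members and 0 of 12137 genes were called, so the call in this comparison turns on the tool.

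**Figure D3:**
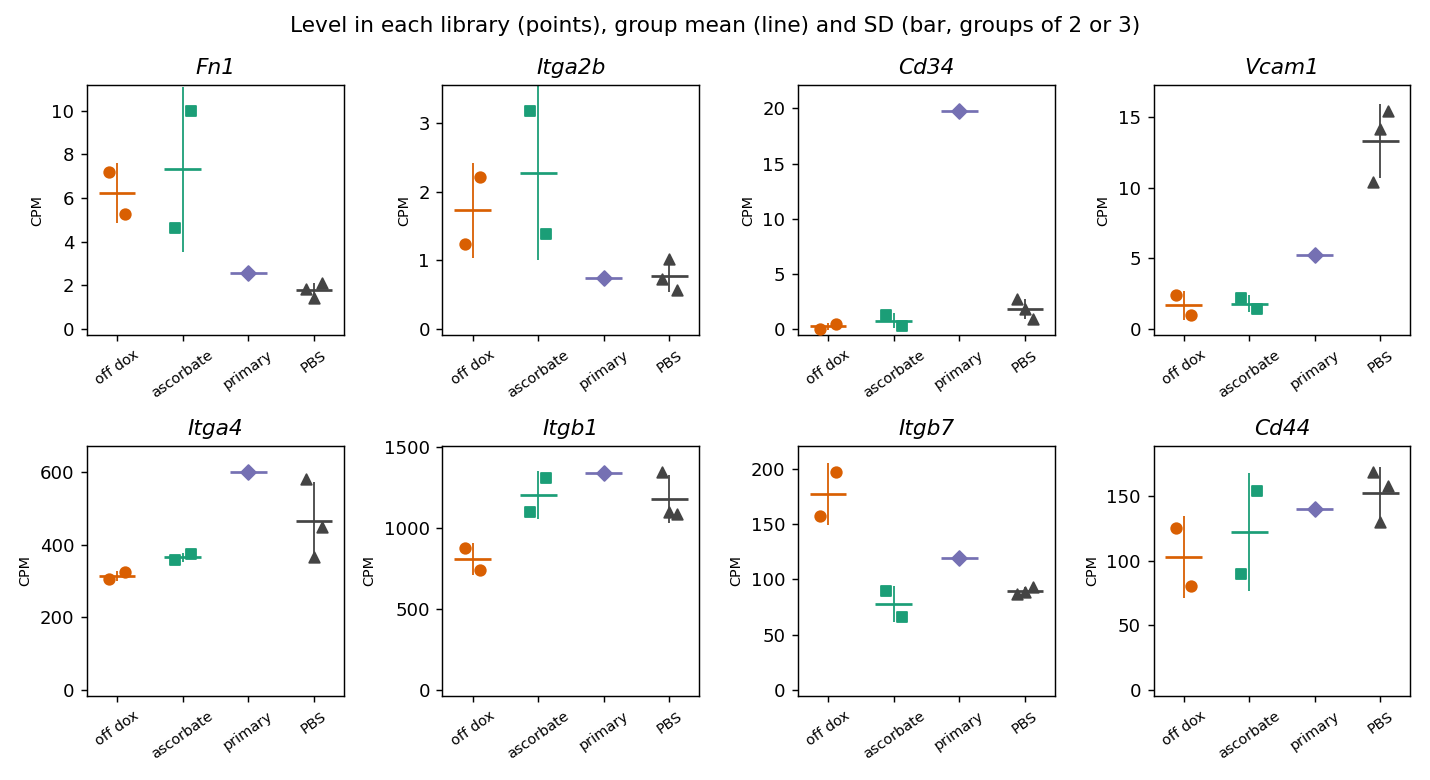
CPM of 8 genes in every library (points), with the group mean (line) and SD (bar, groups of 2 or 3), each panel on its own axis from 0. Fn1 is at 4.64 CPM or more in the 4 mice off doxycycline or on ascorbate and at 2.56 CPM or less in the other 4, and Cd34 stands at 19.8 CPM in the primary library alone.

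Ascorbate against the PBS knockdown asks what a vitamin that serves TET enzymes as a cofactor does while the hairpin stays on. Fn1 rose, and it was the only member to pass. Fn1 had 4.64 and 9.99 CPM under ascorbate (76 and 239 reads), against 1.81, 1.44 and 2.11 CPM (45, 35 and 59 reads) in the PBS knockdown mice. Both ascorbate mice were above all 3 PBS knockdown mice, and the 95% Poisson interval of the lower one, 3.66 to 5.81 CPM, lay above that of the highest PBS knockdown mouse, 1.61 to 2.73 CPM. The log2 fold change was 2.03 (SE 0.38, edgeR quasi-likelihood Benjamini-Hochberg adjusted p = 0.0348). Without any 1 of the 5 libraries compared, that is mouse 16, 17, 19, 28 or 30, Fn1 no longer passed. The log2 fold change was then 1.35 (without mouse 30) to 2.47 (without mouse 28). Without mouse 16, 17 and 19 the edgeR quasi-likelihood Benjamini-Hochberg adjusted p was 0.116, 0.0712 and 0.0933. Calls over all genes fell as well, from 347 to 5, 87 and 15 without these 3 mice in turn, so the loss is not particular to Fn1. The PBS knockdown mice are the same 3 in this comparison and in the preceding one, so the similar Fn1 differences of 2.03 and 1.79 share that side.

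Fn1 is also made by stromal cells and macrophages. The summed level of 12 endothelial and stromal markers was 17.2 and 34.2 CPM under ascorbate, 21.2 and 40.9 CPM off doxycycline, 7.81 CPM in the primary library and 18.8, 7.51 and 25.0 CPM in the PBS knockdown mice. Most of it was decorin (Dcn), and Col3a1, Pdgfra, Pdgfrb and Emcn were at 0 in 8 of 8 libraries. The sum followed Dcn: of the 4 markers tested, 3 (Col1a1, Pecam1 and Kdr) lay below 0 and Dcn above 0, both under ascorbate and off doxycycline, with a list median of -0.41 under ascorbate and -0.70 off doxycycline. The summed level of 15 macrophage markers was 31.0 and 31.1 CPM under ascorbate, 40.9 and 15.9 CPM off doxycycline, 27.2 CPM in the primary library and 46.7, 77.7 and 93.1 CPM in the PBS knockdown mice. The libraries are labelled as AE9a-positive cells, and the purity of that selection was not tested. The part of stromal cells and macrophages in the Fn1 difference was not tested.

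The integrin chains did not pass under ascorbate. Itga4 had 356 and 374 CPM under ascorbate, against the 366 to 580 CPM of the PBS knockdown mice (log2 difference -0.36, SE 0.19), and the groups overlapped. Itgb1, at 1099 and 1307 CPM under ascorbate, differed by 0.023 (SE 0.16), and Itgb2, at 65.1 and 48.7 CPM, by -0.0049 (SE 0.21). Itgb1 lay within the PBS knockdown range in both mice, and Itgb2 lay on either side of it. Itga2b had 3.18 and 1.38 CPM under ascorbate, both above the PBS knockdown mice, with a log2 difference of 1.53 (SE 0.51, edgeR quasi-likelihood Benjamini-Hochberg adjusted p = 0.118). Itgam, at 0.92 and 3.47 CPM under ascorbate, held the lowest but 1 and the highest value of the 5 libraries (0.68, SE 0.57).

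Beside Itga2b, the summed level of 12 megakaryocyte and platelet markers was lower under ascorbate and overlapped the PBS knockdown mice off doxycycline, at 140 and 117 CPM under ascorbate, 237 and 196 CPM off doxycycline, 264 CPM in the primary library and 185, 234 and 231 CPM in the PBS knockdown mice. Of these markers Ppbp and Gp6 were at 0 in 8 of 8 libraries. Gp1ba, a chain of the von Willebrand factor receptor, fell under ascorbate by 0.98 on the log2 scale (SE 0.16, edgeR quasi-likelihood Benjamini-Hochberg adjusted p = 0.0291).

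Among the homing receptors, Cd44 was at 90.0 and 154 CPM under ascorbate (-0.33, SE 0.26) and Cxcr4 at 0.79 and 1.42 CPM (-0.42, SE 0.57), both overlapping the PBS knockdown mice. Selplg was at 53.8 and 48.4 CPM under ascorbate, below the 64.1 to 72.2 CPM of the PBS knockdown mice (-0.45, SE 0.25, edgeR quasi-likelihood Benjamini-Hochberg adjusted p = 0.303). Cd34 gave 20 and 6 reads under ascorbate, 1.22 and 0.251 CPM, with overlap (-1.35, SE 0.97). In all, 1 of 10 members passed as higher, against 1.09% of all genes tested, and 0 of 10 as lower, against 1.77%. An unadjusted p under 0.05 was reached by 2 of 10 members, Fn1 and Itga2b, against 23.6% of all genes, and 3 of 10 did not overlap, against 45.9%. The members' median log2 difference was -0.17, beside -0.012 over all genes.

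**Figure D4:**
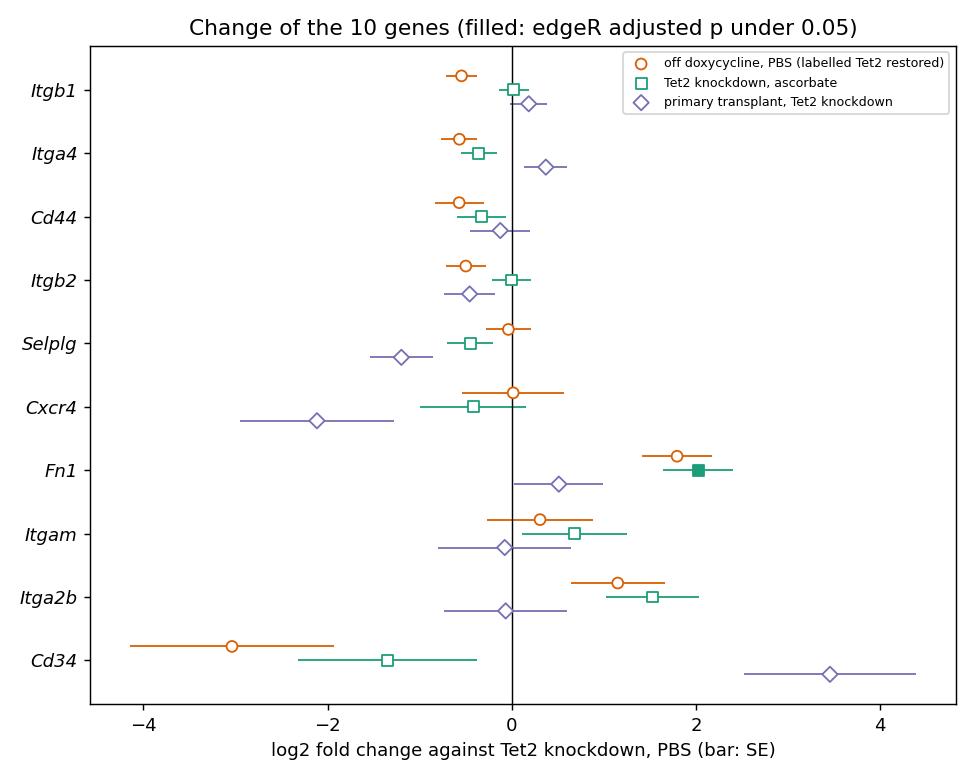
log2 fold change of the 10 genes against the PBS knockdown mice (points) with SE (bars), for mice off doxycycline, ascorbate mice and the primary library; filled points passed the edgeR adjusted test. The filled point is Fn1 under ascorbate at 2.03; Fn1 off doxycycline is open at 1.79, and Cd34 runs from -3.04 off doxycycline to 3.45 in the primary library.

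Set against each other, the mice off doxycycline and those on ascorbate differed in no member by the adjusted test. Fn1 differed by -0.23 (SE 0.41), off doxycycline over ascorbate, with overlapping values. Itgb1 stood at 876 and 739 CPM off doxycycline, below 1099 and 1307 CPM under ascorbate, a log2 difference of -0.57 (SE 0.18, edgeR quasi-likelihood Benjamini-Hochberg adjusted p = 0.200). Itga4 (-0.21, SE 0.21) and Itgb2 (-0.49, SE 0.23) were also lower off doxycycline in both mice, and Itgb7 was higher in both (1.20, SE 0.20, adjusted p = 0.0913). With edgeR 0 of 10 members passed, against 0.00824% of all genes as higher and 0% as lower. An unadjusted p under 0.05 was reached by 1 of 10, Itgb1, against 16.2% of all genes, and 3 of 10 did not overlap, against 44.8%.

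The primary recipient is 1 library, and its test assumes that it varies like the other groups. Cd34 had 696 reads there, 19.8 CPM, above every other library by a wide margin, since the PBS knockdown mice had 2.70, 1.85 and 0.860 CPM. The log2 difference was 3.45 (SE 0.94, edgeR quasi-likelihood Benjamini-Hochberg adjusted p = 0.280). Selplg, at 30.2 CPM, was the lowest of the 8 libraries (-1.20, SE 0.34, adjusted p = 0.274), and so was Cxcr4, at 0.341 CPM from 12 reads (-2.11, SE 0.84). Itga4, at 600 CPM, was the highest of the 8 (0.37, SE 0.23), Itgb2 at 41.3 CPM lay below the PBS knockdown mice (-0.46, SE 0.28), and Fn1, at 2.56 CPM, lay just above them (0.51, SE 0.48). With edgeR 0 of 10 members passed, against 0.0691% of 13024 genes as higher and 0.0461% as lower. An unadjusted p under 0.05 was reached by 3 of 10 (Selplg, Cxcr4 and Cd34), against 9.08% of all genes, and 6 of 10 lay outside the PBS knockdown range, against 61.6%. DESeq2's Wald test called Selplg. The summed level of 9 neutrophil markers was 43.5 CPM in this library and 1.25 to 8.66 CPM in the PBS knockdown mice, and that of 15 macrophage markers 27.2 CPM, against 46.7 to 93.1 CPM; their part in these differences was not tested.

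The counter-receptors of the members changed under ascorbate at the VCAM-1 and ICAM-1 genes. Of 25 ligand genes 9 were tested, and 1 rose and 1 fell under ascorbate, where 1.09% of all genes rose and 1.77% fell. Vcam1, whose product binds alpha4 beta1, had 2.20 and 1.38 CPM under ascorbate, against 10.4, 14.1 and 15.4 CPM in the PBS knockdown mice. It fell by 2.92 on the log2 scale (SE 0.43, edgeR quasi-likelihood Benjamini-Hochberg adjusted p = 0.0253). Off doxycycline it was at 2.39 and 0.959 CPM, with a log2 difference of -2.97 (adjusted p = 0.0502). Vcam1 is itself 1 of the 15 macrophage markers, 13 of which were tested. All 13 lay below 0 both under ascorbate and off doxycycline, with a median log2 difference of -1.31 under ascorbate and -1.39 off doxycycline. Vcam1, Mertk and Mrc1 passed under ascorbate. Without mouse 16, 19, 28 or 30 Vcam1 no longer passed. The drop was not particular to these groups. All 13 also lay below 0 in the primary library, with a median of -1.51, and Vcam1 was at 5.25 CPM there (-1.34). Col1a1, a chain of collagen I, gave 1 and 0 reads off doxycycline (0.0412 and 0 CPM), against 44, 34 and 59 reads in the PBS knockdown mice (1.77, 1.40 and 2.11 CPM; edgeR quasi-likelihood Benjamini-Hochberg adjusted p = 0.0502), and no fold is given on so few reads.

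Icam1, whose product binds LFA-1 and Mac-1, rose under ascorbate, with 56.3 and 60.2 CPM there, against 27.3, 30.5 and 34.1 CPM in the PBS knockdown mice (0.92, SE 0.16, edgeR quasi-likelihood Benjamini-Hochberg adjusted p = 0.0298). Off doxycycline Icam1 was at 44.6 CPM in both mice (0.54, adjusted p = 0.0738). Of 21 other integrin chains 12 were tested, and 1 rose and 0 fell under ascorbate, against 1.09% and 1.77% of all genes. Itgb4, the laminin-binding partner of alpha6, had 24.3 and 31.9 CPM under ascorbate, against 7.14, 9.40 and 12.0 CPM in the PBS knockdown mice (1.55, SE 0.25, edgeR quasi-likelihood Benjamini-Hochberg adjusted p = 0.0267). Its partner Itga6 stood at 130 and 108 CPM under ascorbate and at 108 and 122 CPM off doxycycline, both below the 192, 150 and 175 CPM of the PBS knockdown mice, without passing. Icam1 and Itgb4 no longer passed without any 1 of mice 16, 17, 19, 28 and 30.

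Of 19 genes for selectins and the sugars and sulphates of their ligands, 14 were tested, and 1 rose and 0 fell under ascorbate, against the same shares of 1.09% and 1.77% of all genes. Tpst2, an enzyme that sulphates tyrosines such as those of PSGL-1, had 47.7 and 44.0 CPM under ascorbate, against 20.0, 25.8 and 25.0 CPM in the PBS knockdown mice (0.95, SE 0.18, edgeR quasi-likelihood Benjamini-Hochberg adjusted p = 0.0341). Off doxycycline its log2 difference was 0.75 (adjusted p = 0.0542). Of 34 chemokine and egress genes 20 were tested, and 1 rose and 1 fell under ascorbate, again against 1.09% and 1.77%. S1pr4, a receptor for sphingosine 1-phosphate, rose to 348 and 236 CPM under ascorbate, against 110, 168 and 133 CPM in the PBS knockdown mice (1.08, SE 0.21, adjusted p = 0.0368). Arrb1, a beta-arrestin that takes chemokine receptors off signalling, fell to 107 and 119 CPM, against 234, 180 and 176 CPM (-0.81, SE 0.17, adjusted p = 0.0448). Tpst2 and Arrb1 lost the call without any 1 of mice 16, 17, 19, 28 and 30, and S1pr4 without mouse 16, 19, 28 or 30.

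The inner machinery of the integrins did not pass. Under ascorbate 0 of 28 tested genes of integrin activation passed with edgeR, and 3 reached an unadjusted p under 0.05, against 23.6% of all genes. The adaptor Lims1 (PINCH1) had 97.0 and 119 CPM under ascorbate and 237, 152 and 185 CPM in the PBS knockdown mice (-0.83, edgeR quasi-likelihood Benjamini-Hochberg adjusted p = 0.0653). Rassf5 (RAPL), a partner of RAP1 in LFA-1 activation, had 131 and 210 CPM off doxycycline, against 89.0, 92.0 and 98.7 CPM in the PBS knockdown mice (0.87, adjusted p = 0.0576). Of the hyaluronan genes 0 of 8 tested passed under ascorbate, of the progenitor surface genes 0 of 12 and of the matrix assembly genes 0 of 10, while 1, 2 and 1 of them reached an unadjusted p under 0.05, again against 23.6% of all genes. The tetraspanin Cd82 had 141 and 133 CPM under ascorbate and 125 and 176 CPM off doxycycline, above the 62.0, 74.9 and 92.7 CPM of the PBS knockdown mice (0.83, adjusted p = 0.0605, and 0.98, adjusted p = 0.0502).

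Off doxycycline 0 genes of any of these 8 lists passed with edgeR. The chemokine and egress list had the largest count at an unadjusted p under 0.05, 11 of 20 tested, against 29.2% of all genes. Its median log2 difference was 0.57 beside -0.0020 over all genes. The hyaluronan list had a larger share, 5 of 8 tested, with a median log2 difference of -0.15. Ccr9, the gut-homing receptor for CCL25, had 14.0 and 18.1 CPM off doxycycline and 4.72, 5.54 and 5.95 CPM in the PBS knockdown mice (1.57, SE 0.24, edgeR quasi-likelihood Benjamini-Hochberg adjusted p = 0.0502). Rgs1, which damps chemokine receptor signalling, had 19.8 and 30.1 CPM off doxycycline and 10.2, 10.5 and 11.4 CPM in the PBS knockdown mice (1.22, adjusted p = 0.0507). Both genes were higher in both mice, and Ccr9 under ascorbate stayed close to the PBS knockdown, at 6.05 and 5.10 CPM.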

How the data were processed

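Oligo-dT primed RNA-seq libraries (NEXTflex, per the labels' protocols) of AE9a-positive spleen cells were used as deposited. The authors deposited raw read counts per gene and FPKM rounded to hundredths. STAR, featureCounts, DESeq2 and the builds mm10 and GRCm38 are named in the submitters' processing notes, with no versions, and the strand setting is not given in the sources used here. Exons of Itga4, Fn1 and Cd34 overlap the opposite-strand genes Cerkl (38 to 125 reads), Apol7d (0 reads) and Gm16897 (0 to 2 reads), and those of Itgam overlap Gm49368, so such reads cannot be told apart. The 2 duplicated symbols are not members.

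Counts were tested with edgeR 4.0.16 in R 4.3.3 (TMM factors, filterByExpr with a minimum count of 10, robust quasi-likelihood fit, Benjamini-Hochberg adjustment over all genes). One fit held the 7 secondary libraries in 3 groups; another held all 8 for the primary recipient. All 10 members were tested in all 4 comparisons. CPM used TMM-scaled totals, with exact 95% Poisson intervals that cover counting error only. A gene at 0 was given a floor of 3 reads. The scripts were tested on simulated data.

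Alternatives were DESeq2 size factors, library totals, DESeq2 1.42.0, limma 3.58.1 (voom with quality weights; trend on log2(FPKM + 1) and log2(FPKM + 0.1)), other low-count filters, other sets of libraries, a gene length offset and leaving out each library. The members and 17 lists were chosen with earlier results of these data known. Named were all members, the partner chains and, per list, the 4 genes with the smallest p in each secondary comparison with the PBS knockdown, of which a part is printed: all that passed under ascorbate, and others picked with their values known. Gp1ba, Mertk and Mrc1 were named after their values were seen, and whether they pass with a library left out was not tested. Labels name separate mice, and the p-values measure the spread between them. No paired analysis was possible because the groups share no mouse numbers.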

Additional observations from a re-analysis of the deposited data

How the results depend on the processing

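The Fn1 call under ascorbate held under DESeq2 size factors, library totals, DESeq2, voom, both other count filters, both other sets of libraries and the length offset. Members called under ascorbate were 0 on log2(FPKM + 1) and on log2(FPKM + 0.1), where the minimum of 1 FPKM left 5 members and not Fn1, and 0 to 1 when a library was left out. Off doxycycline against the PBS knockdown, members called were 1 with DESeq2 size factors, Fn1, where 367 of 12137 genes were called. With at least 1 CPM in 2 libraries the member called was again Fn1, where 321 of 10746 genes were called. Members called were 4 with DESeq2 (1951 of 12137 genes) and 5 without a filter (2207 of 22734 genes). In the primary comparison they were 1 with DESeq2 and 2 with voom and without a filter (Selplg and Cd34). Leaving out mouse 21 gave 1692 calls over all genes off doxycycline and 0 members. The cause of these shifts was not tested. On library totals the median of all genes lay at -0.12 for ascorbate against the PBS knockdown.

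Signs turned in values that had not passed. Off doxycycline against the PBS knockdown, voom gave Cxcr4 -0.23, and the length offset gave Cxcr4 -0.21, Selplg 0.0031, Lama5 0.010 and Itga5 0.021. Under ascorbate Itgb2 was 0.0063 with DESeq2 size factors, 0.0062 with DESeq2, 0.00060 with at least 1 CPM in 2 libraries, 0.012 with only the groups compared and 0.0047 with all 8 libraries, Itgb1 was -0.082 on library totals and Itgav 0.0024 with the length offset. Off doxycycline against ascorbate the length offset gave Itga4 0.015, and in the primary comparison voom gave Itga2b 0.17.

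Leaving out a library gave, off doxycycline against the PBS knockdown, -0.59 to 0.36 for Selplg, -1.29 to 0.67 for Cxcr4, -1.86 to 0.00047 for Tgm2 and -0.42 to 0.28 for Itga5. Under ascorbate it gave -0.12 to 0.15 for Itgb1, -0.60 to 1.33 for Itgam, -0.22 to 0.18 for Itgb2, -0.78 to 0.016 for Cd44, -0.48 to 0.40 for Itgax, -0.57 to 0.70 for Itga5 and -0.36 to 0.047 for Itgav. Off doxycycline against ascorbate it gave -0.68 to 0.44 for Fn1, -1.02 to 0.90 for Itgam, -0.87 to 0.32 for Itga2b, -0.60 to 0.20 for Cd44, -0.15 to 0.81 for Selplg and -0.87 to 1.09 for Cxcr4. In the primary comparison it gave -0.30 to 0.33 for Itgam and -0.22 to 0.18 for Itga2b. Depth limits Cd34, Cxcr4, Itga2b and Itgam most, with 0 to 83 reads outside the primary library.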

Other observations

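Of the actin linkers of adhesion receptors, 4 were looked at with their values known. Moesin (Msn), which ties CD44 and PSGL-1 to actin, had 734 and 1010 CPM off doxycycline, against 614, 639 and 675 CPM in the PBS knockdown mice, a log2 difference of 0.44 (SE 0.16). Ezrin (Ezr), of the same family, had 200.4 and 324 CPM off doxycycline, against 169.7, 170.1 and 183 CPM in the PBS knockdown mice (0.59, SE 0.22, edgeR quasi-likelihood Benjamini-Hochberg adjusted p = 0.115). The other relative, radixin (Rdx), had 183 and 155 CPM off doxycycline and 375, 255 and 266 CPM in the PBS knockdown mice (-0.83, SE 0.22, edgeR quasi-likelihood Benjamini-Hochberg adjusted p = 0.0644). Talin (Tln1), which binds integrin beta tails, differed by -0.21 (SE 0.13) off doxycycline and by 0.040 (SE 0.13) under ascorbate. The cytokine receptor chain Csf2rb was at 996 and 1108 CPM off doxycycline, against 625, 640 and 629 CPM in the PBS knockdown mice (0.74, SE 0.16, adjusted p = 0.0509), and did not separate under ascorbate (745 and 541 CPM).

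Over the 8 libraries, the profiles closest to Fn1 by Pearson's r of log2 CPM, among 8579 genes with a mean of at least 5 CPM, were those of Apobec2 (r = 0.95), Prelid3a, Npr1, Anp32a and Arhgap27 (0.91 for the last). Apobec2 had 97.0 and 84.5 CPM off doxycycline, 84.5 and 139 CPM under ascorbate, 42.4 CPM in the primary library and 42.0, 33.0 and 61.6 CPM in the PBS knockdown mice. The profiles closest to Itga2b were those of Ncaph2 (r = 0.98), Phf7, Ubxn6, Iah1 and Stk25 (0.96 for the last). These r values describe the libraries, which share depth and group, and carry no test.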
